A study of Canis lupus familiaris with 20 samples.

Results

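The members described here are the nuclear genes of the mitochondrial respiratory chain and of ATP synthase that the array names by their family symbols. They were chosen by name: NDUFA, NDUFB, NDUFC, NDUFS and NDUFV followed by a number for complex I, SDHA to SDHD for complex II, symbols starting with UQCR for complex III, COX4 to COX8 for complex IV, and ATP5 for complex V, the ATP synthase. The rule found 42 genes with 68 probes among 43603 distinct probes, and each gene was represented by its probe with the highest mean signal over the 20 arrays. Complex I had 29 of these genes, complex II had 2 (SDHA and SDHC), complex III had 2 (UQCRC1 and UQCRC2), complex IV had 1 and complex V had 8. The rule used names to choose the genes and measured signal only to choose between probes of a gene. The names need some corrections. COX4NB, the only gene under complex IV, is the neighbour of the COX4 gene and encodes a subunit of the membrane protein insertion complex of the endoplasmic reticulum, not of cytochrome oxidase. ATP5SL, named for its likeness to another ATP5 symbol, is not a subunit of the synthase. NDUFA4 counts under complex I by name, although its protein is a subunit of complex IV. NDUFA4L2, its relative, also counts under complex I by name, and its values enter the complex I counts. No subunit of complex IV other than NDUFA4 was therefore a member, and the cytochrome oxidase subunits that the array carries under other names are described apart from the members.

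Complexes I and II take electrons from NADH and succinate, ubiquinone and cytochrome c carry them to complexes III and IV, and oxygen is reduced at the last step. Complexes I, III and IV pump protons across the inner mitochondrial membrane, and ATP synthase uses their return to make ATP. In the retina the mitochondria of photoreceptors are packed into the inner segments, and cones hold more of them than rods. NDUFA4L2, a relative of NDUFA4, is known from human and mouse cells as a target of hypoxia-inducible factor that lowers complex I activity, and in mouse brain vessels it marks pericytes.

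The 20 arrays measured the retinas of 10 dogs, 1 array per eye, in 4 groups of 5, and all dogs came from the same research colony. Of the normal dogs, all male, 4 were CNGB3+/m carriers and dog 3 was CNGB3+/+, while the 5 mutant dogs, 3 females and 2 males, were CNGB3m/m, homozygous for the D262N missense change in the cone cyclic nucleotide-gated channel. Ciliary neurotrophic factor (CNTF), a survival factor for retinal neurons, was injected into the vitreous of each right eye at 12 µg and PBS into each left eye, and the eyes were taken at 1 week. By the sample labels the normal dogs were 8.9 weeks and the mutants 10.7 to 11.5 weeks old, whereas the description of the study has all of them at about 11 months, and genotype and labelled age cannot be told apart in the comparison of genotypes. Sex overlaps only in part with genotype, since 2 mutants were male.

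Signal at the 75th percentile of an array lay between 291 and 592 intensity units, and 52.2 to 71.9% of probes were well above background. The 5 slides held 4 arrays each and were not balanced over the groups: PBS normal 1 to 4 shared the first slide, PBS normal 5 and PBS mutant 1 to 3 the second, PBS mutant 4 and 5 and CNTF normal 1 and 2 the third, CNTF normal 3 to 5 and CNTF mutant 1 the fourth, and CNTF mutant 2 to 5 the fifth. No slide held both eyes of a dog, and no slide held PBS and CNTF eyes of the same genotype. A fit with the slide as a block therefore reached the CNTF change only by way of the other genotype. In normal dogs it joined the difference within the third slide to that within the second, where PBS normal 5 was the only normal eye. In mutants it joined the third slide to the fourth, where CNTF mutant 1 was the only mutant eye. Of the rod and cone markers 7 and 8 genes had values on every array, and in each group at least 7 of either were well above background on all 5 arrays. Values below are log2 signal relative to the 75th percentile of the same array, called the level, and differences of such levels, called the change. A gene was called changed at an adjusted p under 0.05 (limma, Benjamini-Hochberg over the tested probes of each comparison, 29336 to 29433 of 29545 kept). All 42 members were well above background on all 20 arrays, so none entered the test through a single group. Because spots marked as outliers were left out, 31 members had a value on every array, 9 on 16 to 19 arrays, SDHC on 13 and ATP5G2 on 2, and ATP5G2 was not tested.

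The probes that the results turn on are 60 bases long. NDUFA4L2 and NDUFA4 encode related proteins, and the probe of NDUFA4L2 (canFam2, chr10:4346158-4346316, minus strand) is given with a probe of NDUFA4 that covers the same stretch of the message (placed by the file at chr10:46610460-46610519, minus strand), since cross-binding between them would blur the contrast of these genes. Capitals mark the bases that are identical when the probes are aligned without gaps, 28 of 49. The chosen NDUFA4 probe, the brighter of 2, lies elsewhere, at chr14:28835844-28835903.
NDUFA4L2: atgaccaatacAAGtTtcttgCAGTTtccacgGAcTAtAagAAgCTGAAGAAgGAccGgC
NDUFA4: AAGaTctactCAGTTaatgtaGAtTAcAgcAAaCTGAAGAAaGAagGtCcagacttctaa
The probe of NDUFA11 at chr20:57132044-57132103 on the plus strand is shown because this gene had the largest rise among the members, and its 3 probes gave changes between 0.90 and 1.02 in normal dogs.
NDUFA11: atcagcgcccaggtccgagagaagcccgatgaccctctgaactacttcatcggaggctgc
The position of these probes within the exons was not analysed here.

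NDUFA4L2 fell after CNTF in every dog of both genotypes, by far the largest change among the 41 tested members. In the PBS eyes of normal dogs 1 to 5 its level was 2.39, 1.83, 2.17, 1.92 and 2.36, and in their CNTF eyes it was -0.60, -0.81, -0.49, -0.70 and -0.73. In the PBS eyes of mutant dogs the level was 1.83, 1.29, 1.75, 1.59 and 1.71, and in their CNTF eyes it was -1.46, -1.27, -1.31, -1.44 and -0.82. Every CNTF eye lay below every PBS eye, with no overlap. The change was -2.80 ± 0.13 (SE, adjusted p = 1.6e-07) in 5 normal dogs and -2.89 ± 0.13 (SE, adjusted p = 2.12e-07) in 5 mutant dogs, a fall of 6.96-fold and 7.43-fold in signal. Single dogs lay between -3.09 and -2.62 among normals and between -3.29 and -2.52 among mutants. The difference of these changes, mutant minus normal, was -0.09 ± 0.18 (adjusted p = 0.722).

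With the slide as a block in place of the dog the change of NDUFA4L2 was -3.09 ± 0.37 (adjusted p = 0.00027) in normal and -3.17 ± 0.37 (adjusted p = 0.000199) in mutant dogs. With slide and dog both in the model it was -3.23 and -3.44, and adjusted p rose to 0.0694 and 0.0666. PBS eyes of mutant dogs 4 and 5 and CNTF eyes of normal dogs 1 and 2 shared slide 3. The difference there, CNTF normal minus PBS mutant, was -2.35. That difference is part of the slide block's change in both genotypes, so the slide block rests on comparisons across genotypes. In normal dogs it also rests on PBS normal 5 as the only PBS normal eye. Over all alternatives the change lay between -3.23 and -2.53 in normal dogs, with adjusted p between 5.09e-11 and 0.0694, and between -3.44 and -2.32 in mutant dogs, with adjusted p between 4.15e-11 and 0.0666.

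**Figure D1:**
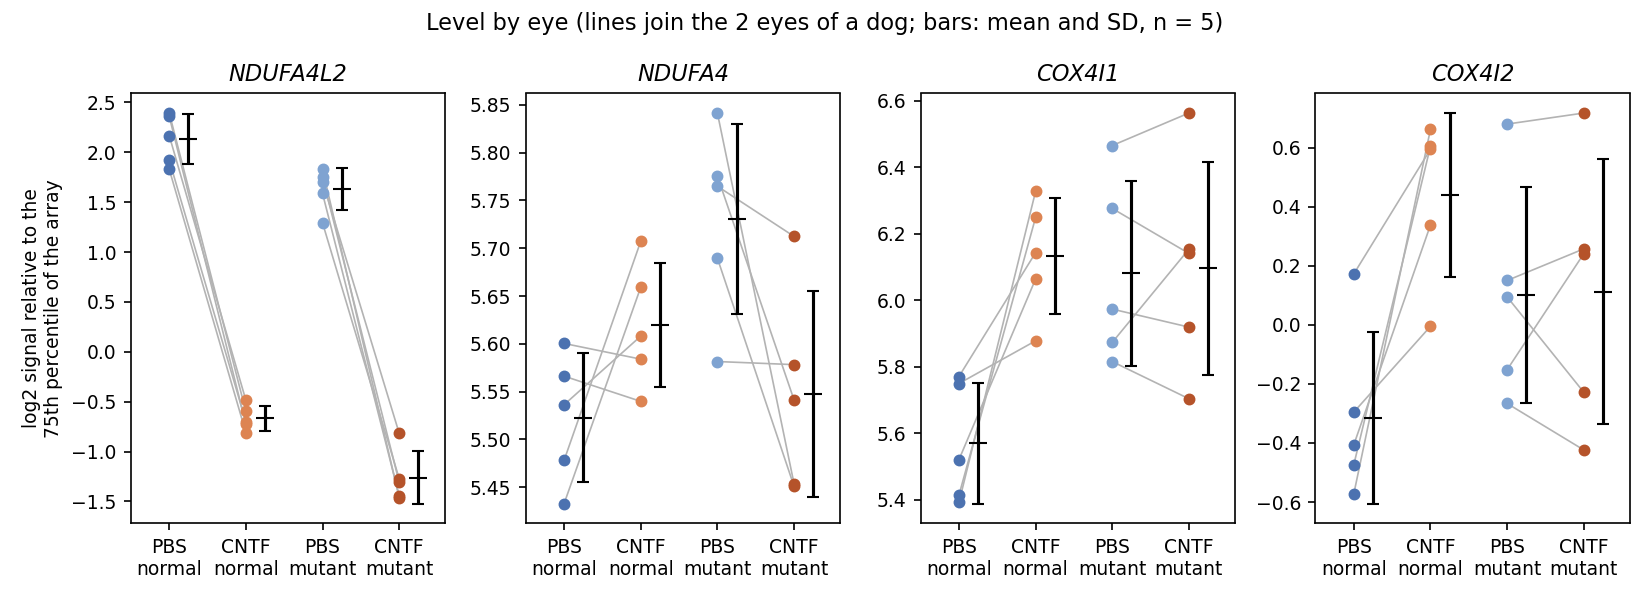
Level (log2 signal relative to the 75th percentile of the array, vertical axis) of NDUFA4L2 and of the genes set beside it in each eye, by group (horizontal axis), where lines join both eyes of a dog and bars give the mean and SD of 5 eyes. NDUFA4L2 lay at or above 1.29 in every PBS eye and at or below -0.49 in every CNTF eye.

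NDUFA4 and the forms of COX4, which sit together in complex IV, had no such fall under the 75th percentile scaling. NDUFA4, the related complex IV subunit, lay between 5.43 and 5.84 on all 20 arrays, with a change of 0.10 ± 0.09 (adjusted p = 0.382) in normal and -0.18 ± 0.09 (adjusted p = 0.157) in mutant dogs. Under quantile normalization and in the deposited values its change in normal dogs was called lower. The second NDUFA4 probe, the one printed above, gave -0.04 and -0.09. COX4I1, the common form of a core regulatory subunit of complex IV, rose by 0.56 ± 0.12 (adjusted p = 0.00396) in normal dogs and had a change of 0.02 ± 0.12 in mutants. COX4I2, the form of the same subunit that is known from human cells to be induced at low oxygen, rose by 0.75 ± 0.15 (adjusted p = 0.00229) in normal dogs and had a change of 0.01 ± 0.15 in mutants. Neither form of COX4 was called in normal dogs with the slide as a block (adjusted p = 0.389 and 0.299), and neither was tested under the other scalings.

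Markers of cell types were measured beside NDUFA4L2, and their part in its fall was not tested. Of 8 pericyte markers 5 were tested. In normal dogs 1 rose (CSPG4) and 1 fell (PDGFRB), in mutants none passed, and the medians were -0.02 and -0.17. Their summed level ranged from 0.95 to 1.40 in PBS normal, 1.47 to 2.12 in CNTF normal, 1.20 to 2.36 in PBS mutant and 0.61 to 1.84 in CNTF mutant eyes. All 5 were well above background on every array, and none was at 0. Of 8 tested cone markers, 8 fell in normal and 7 in mutant dogs, with medians of -1.44 and -1.20. The summed cone level ranged from 6.45 to 6.88 and from 6.36 to 6.77 in PBS eyes of normal and mutant dogs and from 4.69 to 5.21 and from 4.57 to 5.31 in their CNTF eyes. Microglia and macrophage markers rose for 8 of 8 genes in normal and 7 of 8 in mutant dogs, with medians of 3.12 and 2.88, and their summed level went from 2.23 to 2.63 and 2.74 to 3.27 in PBS eyes to 4.50 to 5.15 and 4.57 to 5.28 in CNTF eyes. Of all probes 23.6% rose and 27.6% fell in normal and 11.6% and 17.3% in mutant dogs. With the slide as a block 3 cone markers were called in normal and 1 in mutant dogs. For microglia and macrophage markers 7 and 3 were called with that block, and no pericyte marker was. The block left 1148 of 29282 probes called in normal and 796 of 29206 in mutant dogs. In these bulk samples fewer cells of a type and less RNA per cell cannot be told apart.

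The low-oxygen list, 14 tested genes known as targets or parts of the hypoxia-inducible factor pathway, did not move in 1 direction. In normal dogs 2 rose and 2 fell, beside 23.6% and 27.6% of all probes, with a median of 0.07. In mutants 5 rose and 4 fell, beside 11.6% and 17.3% of all probes, with a median of -0.01. LDHA, a lactate dehydrogenase subunit, rose by 0.71 (adjusted p = 0.000275) in normal and 0.51 (adjusted p = 0.00311) in mutant dogs. ADM, a secreted vasodilator peptide, fell by 0.54 (adjusted p = 0.019) and by 1.34 (adjusted p = 0.00014). EPAS1, itself a hypoxia-inducible factor subunit, rose by 0.64 (adjusted p = 0.00431) in normal dogs, and PDK1, a kinase that shuts off pyruvate dehydrogenase, rose by 0.86 (adjusted p = 0.00138) in mutants. The median change of all probes was -0.09 in both genotypes.

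Of the other members, most complex I and ATP synthase genes that passed the test in normal dogs were higher after CNTF under the 75th percentile scaling. In normal dogs 22 of 41 tested members were called (53.7%), beside 51.2% of all tested probes, so the share called was near the background. Of the members 19 were higher (46.3%) and 3 lower (7.32%), beside 23.6% and 27.6% of all probes, and 32 of 41 changes lay above 0. The members' median change was 0.31, beside -0.09 for all probes. Direction depended on the scaling: under quantile normalization 11 were higher and 6 lower with a median of -0.03, in the deposited values 13 were higher and 6 lower with a median of -0.05, and with normexp background 2 were higher and 1 lower. In the same order, 14258 of 29336, 14237 of 29545 and 5758 of 29336 probes were called. Leaving out dog 3 or dog 5 left 13 calls, beside 10950 of 29303 and 11005 of 29309 probes. With the slide as a block only NDUFA4L2 passed, beside 1148 of 29282 probes, while the members' median change was 0.46.

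Of the 41 tested members 19 were higher in every normal dog measured (46.3%), beside 23% of all probes, and 2 were lower in every one (4.88%), beside 27.6%. Of the 19 members called higher, 16 were higher in every dog. Complex I accounted for 15 of the 19, with a median change of 0.34 over its 29 genes. NDUFA11, an accessory subunit of the membrane arm of complex I, had levels of 3.97, 3.90, 3.32, 3.48 and 3.47 in the PBS eyes of normal dogs 1 to 5 and of 4.68, 4.30, 4.81, 4.39 and 5.04 in their CNTF eyes. All CNTF eyes lay above all PBS eyes. It rose by 1.02 ± 0.18 (SE, n = 5 dogs, adjusted p = 0.00103), and in mutants, whose PBS eyes already ranged from 3.99 to 5.24, the change was 0.13 ± 0.18 (adjusted p = 0.636).

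NDUFB9, another accessory subunit of the membrane arm, had levels of 2.63, 2.32, 2.06, 2.04 and 2.18 in PBS and of 3.11, 2.67, 3.08, 2.72 and 3.17 in CNTF eyes of normal dogs. The CNTF eyes were all higher, the lowest of them at 2.67 against 2.63 for the highest PBS eye. It rose by 0.70 ± 0.11 (adjusted p = 0.000549) in normal dogs, with 0.12 in mutants. NDUFB8, also of the membrane arm and often used as an antibody target for complex I, lost PBS normal 1 as an outlier spot. Its other PBS normal eyes lay between 4.64 and 5.01 and the CNTF normal eyes between 5.14 and 5.68, without overlap. It rose by 0.68 ± 0.16 in the 4 dogs measured (adjusted p = 0.00648).

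NDUFS5, a small accessory subunit, was the only member called higher in both genotypes. Its level in PBS normal eyes was 6.002, 6.03, 5.95, 5.99 and 6.02 and in CNTF normal eyes 6.25, 6.15, 6.32, 6.29 and 6.28. In PBS mutant eyes it was 6.01, 6.05, 6.11, 6.03 and 6.001 and in CNTF mutant eyes 6.24, 6.52, 6.34, 6.28 and 6.29. The groups did not overlap in either genotype. The rise was 0.26 ± 0.08 (adjusted p = 0.0223) and 0.30 ± 0.08 (adjusted p = 0.0191), and neither passed under quantile normalization or in the deposited values. With slide and dog as blocks the change in mutants was -0.0031.

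Of the subunits named here that carry redox centres of complex I, most were not called. NDUFV1, which holds the flavin that takes electrons from NADH, was the exception in normal dogs with a rise of 0.53 (adjusted p = 0.0207), and its change was -0.34 in mutants. The call of NDUFV1 in normal dogs was lost under quantile normalization (0.27, adjusted p = 0.0817) and in the deposited values (0.24, adjusted p = 0.11). NDUFV2, NDUFS1 and NDUFS7, subunits of the matrix arm that carry iron-sulphur centres, had changes of 0.17, -0.04 and 0.34 in normal dogs, none called. NDUFA5, an accessory subunit of the quinone module, was called lower in normal dogs (-0.33 ± 0.12, adjusted p = 0.0348) although the change was below 0 in only 4 of 5 dogs. NDUFS4, an accessory subunit of the matrix arm whose loss causes Leigh syndrome in people and mice, was the member of complex I closest to 0, at 0.00 ± 0.14. NDUFB11, a membrane arm subunit encoded on the X chromosome, had a change of 0.02 in normal and 0.03 in mutant dogs and was saturated on 1 array.

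In complex II the 2 members parted. SDHC, a membrane anchor of succinate dehydrogenase, rose by 0.63 ± 0.21 in normal dogs (adjusted p = 0.047), from 3 dogs only, since 7 arrays had no value. In the eyes measured it lay between 2.87 and 3.29 in PBS normal and between 3.40 and 4.02 in CNTF normal eyes. SDHA, the flavoprotein that oxidises succinate, had a change of -0.11 ± 0.10 in normal dogs. In mutants its PBS levels were 3.07, 3.69, 3.23, 3.59 and 3.18 and its CNTF levels 2.58, 3.16, 2.39, 3.02 and 2.52. The group ranges overlapped, but each mutant dog's CNTF eye lay below its PBS eye. SDHA fell by 0.62 ± 0.10 (adjusted p = 0.000926) in mutants, and its second probe fell by 0.55 (adjusted p = 0.00791).

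In complex III the chosen probes of the 2 core proteins did not pass in either genotype. UQCRC1 ranged from 5.22 to 6.08 in PBS normal and from 5.68 to 6.55 in CNTF normal eyes, overlapping ranges, with a change of 0.48 ± 0.19 (adjusted p = 0.0502), and its change in mutants was -0.31. The second probe of UQCRC1 was called in normal dogs, in the same direction, and in mutants neither probe was. UQCRC2 had changes of -0.08 and -0.19. COX4NB had changes of 0.31 ± 0.12 (adjusted p = 0.0583) and -0.18.

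Of 7 tested complex V members 3 rose and 1 fell in normal dogs, beside 23.6% and 27.6% of all probes, with a median of 0.28. ATP5D, the delta subunit of the central stalk, had levels of 2.60, 2.26, 1.75, 1.98 and 1.93 in PBS and of 2.86, 2.44, 3.01, 2.55 and 3.13 in CNTF eyes. The ranges overlapped, but each dog's CNTF eye was the higher. ATP5D rose by 0.69 ± 0.17 (adjusted p = 0.00774), with -0.03 in mutants, where CNTF mutant 3 had no value. ATP5G3, a gene for the c subunit of the membrane ring, rose by 0.51 ± 0.13 (adjusted p = 0.00901), with -0.07 in mutants. The call of ATP5G3 was lost under quantile normalization, at 0.11, and in the deposited values, at 0.10. ATP5B, the catalytic beta subunit, rose by 0.35 ± 0.13 (adjusted p = 0.0402) under the 75th percentile scaling, but its change was -0.04 under quantile normalization and -0.05 in the deposited values. ATP5J, a stalk subunit, was closest to 0 at 0.05.

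ATP5SL fell in both genotypes. Its level in PBS normal eyes was -1.18, -1.35, -1.42, -1.48 and -1.51 and in CNTF normal eyes -1.93, -1.63, -1.67, -1.84 and -1.82. In PBS mutant eyes it was -1.55, -1.57, -1.41, -1.54 and -1.64 and in CNTF mutant eyes -1.91, -2.06, -1.97, -2.22 and -1.95. CNTF eyes lay below PBS eyes of the same genotype without overlap. It fell by 0.39 ± 0.10 (adjusted p = 0.00844) and by 0.48 ± 0.10 (adjusted p = 0.0043). The second, dimmer probe of ATP5SL was not called in either genotype, with changes of -0.07 (adjusted p = 0.697) and -0.23 (adjusted p = 0.246).

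**Figure D2:**
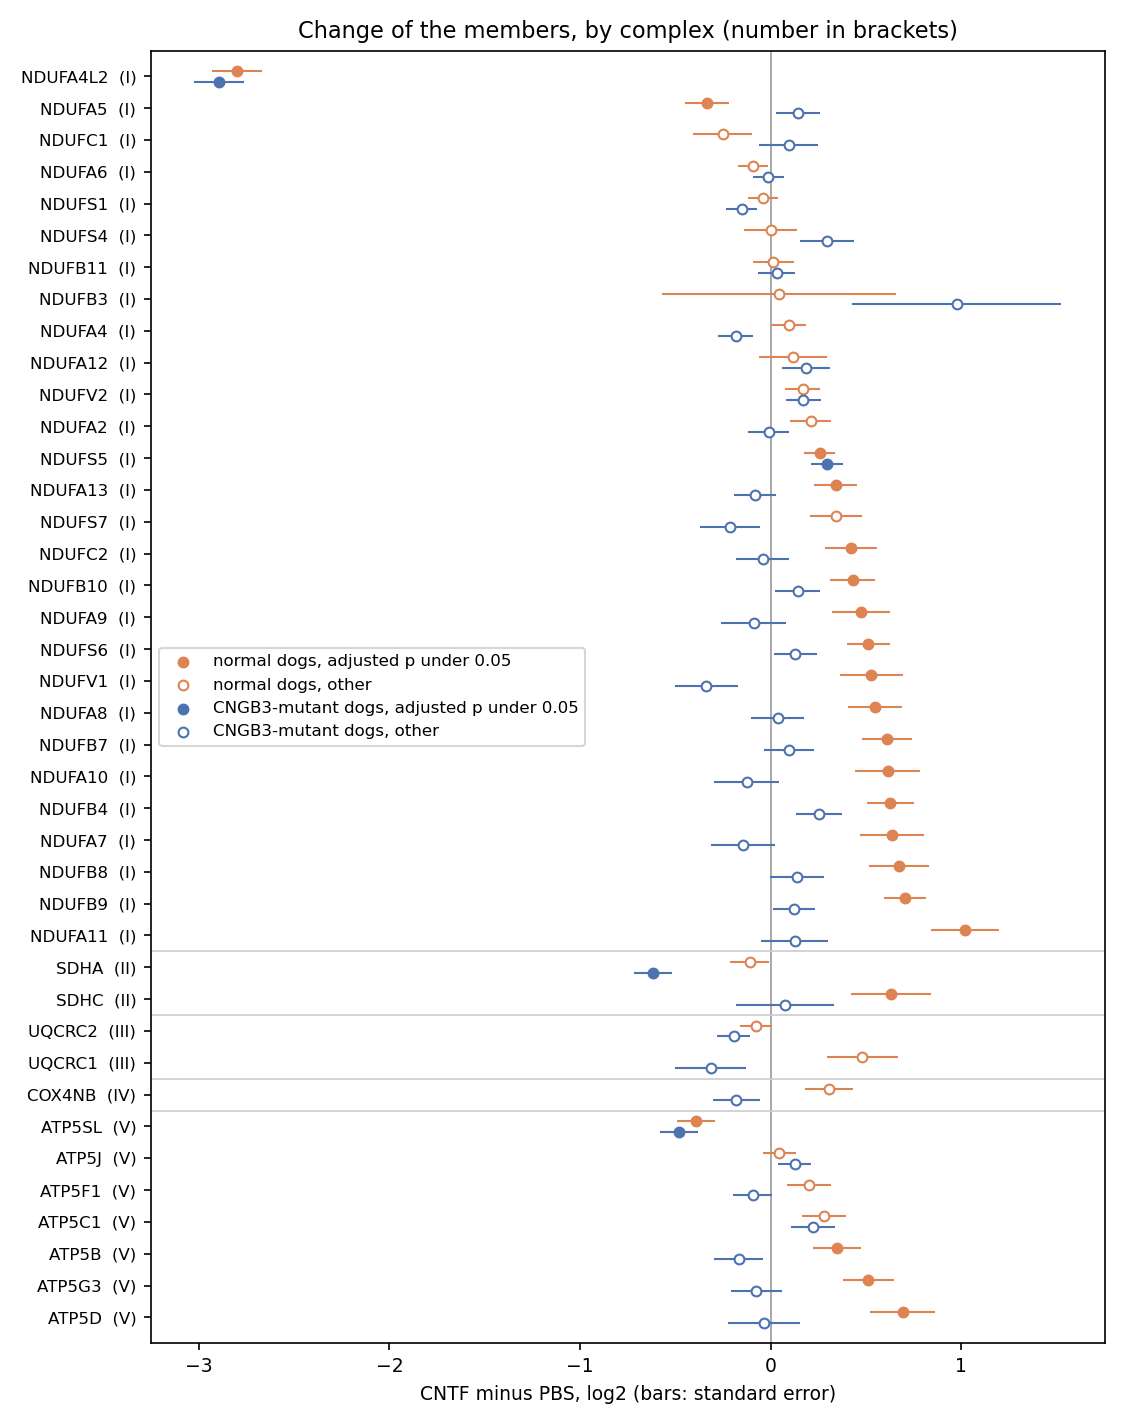
Change after CNTF (log2, CNTF minus PBS, horizontal axis) of 40 of the 41 tested members, grouped by complex, in normal (orange) and CNGB3-mutant dogs (blue), with standard errors as bars and filled points for adjusted p under 0.05. NDUFA4L2 lay near -2.8 in both genotypes while 19 members were higher in normal and 1 in mutant dogs.

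In CNGB3-mutant dogs 4 of 41 members were called (9.76%), beside 28.9% of all tested probes. NDUFS5 was the 1 called higher, beside 11.6% of all probes, and NDUFA4L2, SDHA and ATP5SL were the 3 called lower, beside 17.3%. Of the 41 members 6 were higher in every mutant dog measured (14.6%), beside 16.5% of all probes, and 8 were lower in every one (19.5%), beside 24.2%. Changes lay above 0 for 19 members and below 0 for 22, with a median of -0.01 against -0.09 for all probes. Complex I had a median of 0.04 and complex V of -0.07. NDUFV1, at the NADH end of complex I, did not pass, at -0.34. NDUFA2, an accessory matrix arm subunit, was closest to 0, at -0.01. Under quantile normalization none rose and 6 fell, and in the deposited values none rose and 8 fell, with ATP5B and UQCRC1 among the falls added in both. Of all probes 8214 of 29336 and 8334 of 29545 were called there. With the slide as a block only 1 call was left, beside 796 of 29206 probes. With slide and dog as blocks none was left, beside 47 of 29121 probes.

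Within each genotype the dogs differed. Without NDUFA4L2 the median change of the measured members was 0.14, 0.06, 0.66, 0.30 and 0.63 in normal dogs 1 to 5 and 0.13, -0.04, -0.12, 0.01 and -0.07 in mutant dogs 1 to 5. Dogs 3 and 5 were the highest of the normal dogs and dog 2 lay below mutant dog 1. Dog 3, the only CNGB3+/+ dog, had 30 members above 0 and 8 below, and dog 2 had 26 and 14. In mutant dog 3 only 11 members lay above 0 and 26 below.

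**Figure D3:**
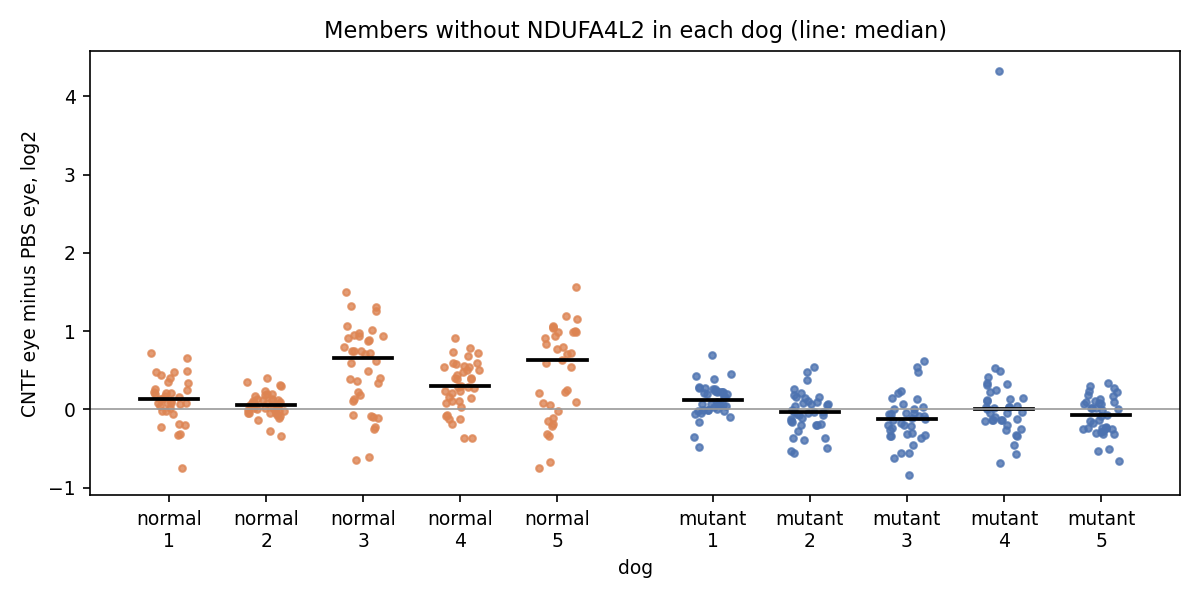
CNTF eye minus PBS eye (log2, vertical axis) of each member without NDUFA4L2 in each of the 10 dogs (horizontal axis), where points are genes and lines are medians. Medians ranged from 0.06 to 0.66 in normal and from -0.12 to 0.13 in mutant dogs.

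The difference between genotypes in the CNTF change was tested directly and no member passed, nor did any of 29336 probes (0% called; 10163 probes had an unadjusted p under 0.05, and the lowest adjusted p was 0.103). Of the members 31 had a lower change in mutants than in normals and 10 a higher one, with a median difference of -0.38, beside -0.06 for all probes, and 21 had an unadjusted p under 0.05. NDUFA11 differed by -0.89 ± 0.25 and NDUFV1 by -0.87, both at adjusted p = 0.103, and UQCRC1 differed by -0.80. NDUFV2 showed the smallest difference of complex I, at 0.00. A change called in normal dogs only was therefore not shown to differ between genotypes. The median difference was -0.13 under quantile normalization, -0.16 in the deposited values and -0.18 with array brightness as a covariate.

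In PBS eyes, no member was called between mutant and normal dogs, beside 0.0272% of all tested probes (8 of 29433, of which 0.0102% higher and 0.017% lower; 10187 had an unadjusted p under 0.05). Of the members 31 were higher in mutants and 10 lower, with a median of 0.28, beside 0.01 for all probes, and 22 had an unadjusted p under 0.05. This comparison uses the same PBS arrays as the CNTF comparisons. Groups did not overlap for 4 members, beside 5.41% of all probes: NDUFA11, which was 0.86 ± 0.24 higher (adjusted p = 0.0953), NDUFB8, SDHC, and NDUFS1, which was 0.40 lower. NDUFB8 lay between 5.07 and 5.66 in PBS mutant eyes. NDUFA4L2 was 0.50 ± 0.15 lower in mutant PBS eyes (-0.50, adjusted p = 0.0953), with levels that overlapped at 1.83. The count changed with the arrays kept and with the handling of the slide. Without PBS normal 1, whose members lay highest of that group, 15 members were called, as were 6296 of 29398 probes. With the slide as a random block 22 were called, 19 higher and 3 lower, as were 9820 of 29433 probes, 5787 higher and 4033 lower. With male dogs only, which left 2 mutants, no member was called, and 30 of 29107 probes were. With the slide as a fixed block the median was 0.48. That fit reduces to the difference within slide 2, the only slide with PBS eyes of both genotypes. It held PBS mutant 1 to 3 and, as its only normal eye, PBS normal 5. Under quantile normalization it was 0.06 and in the deposited values 0.05.

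In CNTF eyes no member was called between genotypes, beside 0.00681% of all probes (2 of 29360; 1645 had an unadjusted p under 0.05), and 3 members had an unadjusted p under 0.05. The members' median was -0.03, with 15 above 0 and 26 below. Groups did not overlap for 2 members, beside 1.09% of all probes. NDUFA4L2 was lower in every mutant CNTF eye than in any normal one (-0.60 ± 0.14, adjusted p = 0.497), the highest mutant eye at -0.82 and the lowest normal eye at -0.81. NDUFS1, the largest iron-sulphur subunit of complex I, lay between 0.34 and 0.64 in mutant and between 0.74 and 1.17 in normal eyes (-0.51, adjusted p = 0.485). It also lay lower in mutant PBS eyes, at 0.47 to 0.85 against 0.85 to 1.13.

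The members' level moved with the brightness of the arrays. Each gene was centred on its mean over the 20 arrays and the median over the 41 members without NDUFA4L2 was taken per array. This median correlated with log2 of the array's 75th percentile at r = -0.77 (Spearman's rho = -0.78, n = 20 arrays), at -0.70 without the 2 arrays farthest from the middle in brightness, and at -0.72 when both were taken as deviations from group means. The arrays share the group, slide and dog effects, so the correlation is a description. The group means of this median were -0.25 ± 0.21 in PBS normal, 0.12 ± 0.15 in CNTF normal, 0.09 ± 0.18 in PBS mutant and 0.06 ± 0.20 in CNTF mutant eyes (SD, n = 5). PBS normal eyes were both the lowest in the members and the brightest arrays, at 454 to 592 intensity units beside 354 to 529, 291 to 526 and 376 to 528 in the other groups. With brightness as a covariate 9 members were called in normal dogs, beside 10534 of 29336 probes. NDUFA11 went with brightness like the members (r = -0.76), whereas for NDUFA4L2 r was 0.16. The part of brightness in the members' changes was not tested beyond these values.

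**Figure D4:**
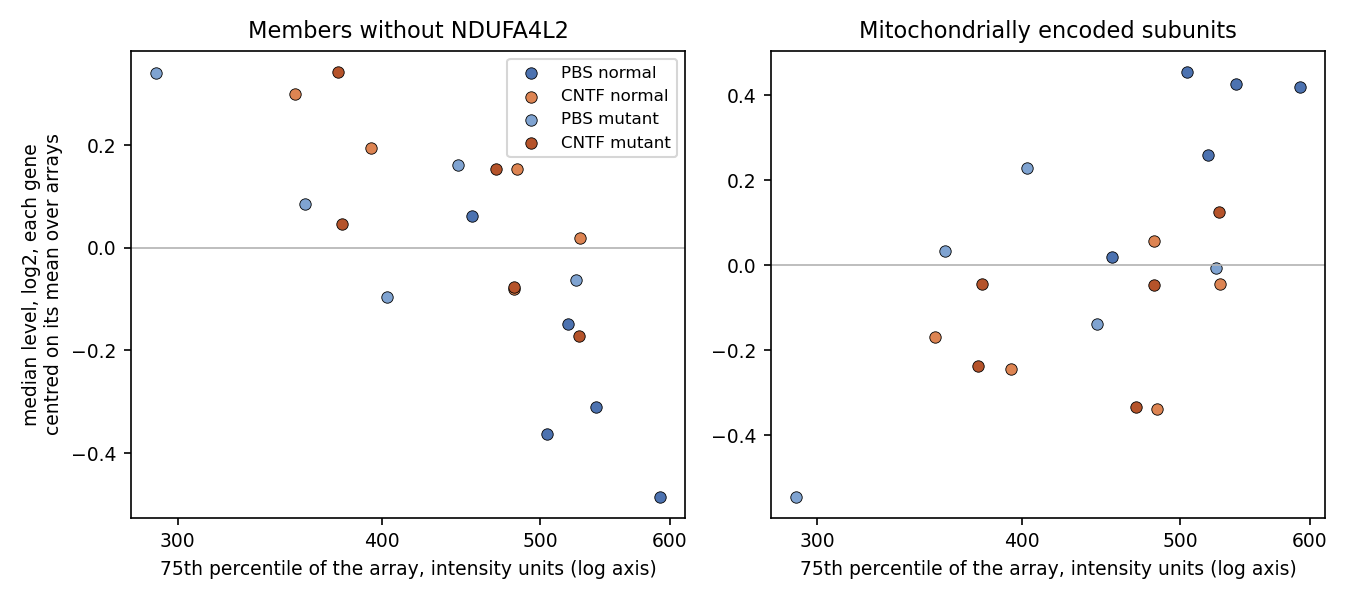
Median level of the 41 members without NDUFA4L2 (left) and of the mitochondrially encoded subunits (right), log2 and centred per gene, on the vertical axis against the 75th percentile of each of the 20 arrays in intensity units (log axis), coloured by group. The members lie lower on brighter arrays (r = -0.77) and the mitochondrially encoded subunits higher (r = 0.63).

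Quantile normalization gives all arrays the same distribution and moved the members more than it moved the average probe. In normal dogs all 11 members higher under it were among the 19, and the lower calls added NDUFA4, NDUFA6 and SDHA. In the deposited values 12 of 13 higher calls were shared, and ATP5G2, another c subunit gene that could not be tested from the array files, was the additional one. NDUFA11, NDUFB9, NDUFB8 and ATP5D were called higher under the 75th percentile and under both of these scalings. Over all probes the higher share of the calls in normal dogs was 46.0% under the 75th percentile, 47.4% under quantile normalization, 45.4% in the deposited values and 61.1% with normexp background, which moved the median of all probes to 0.09 in normal and 0.17 in mutant dogs.

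**Figure D5:**
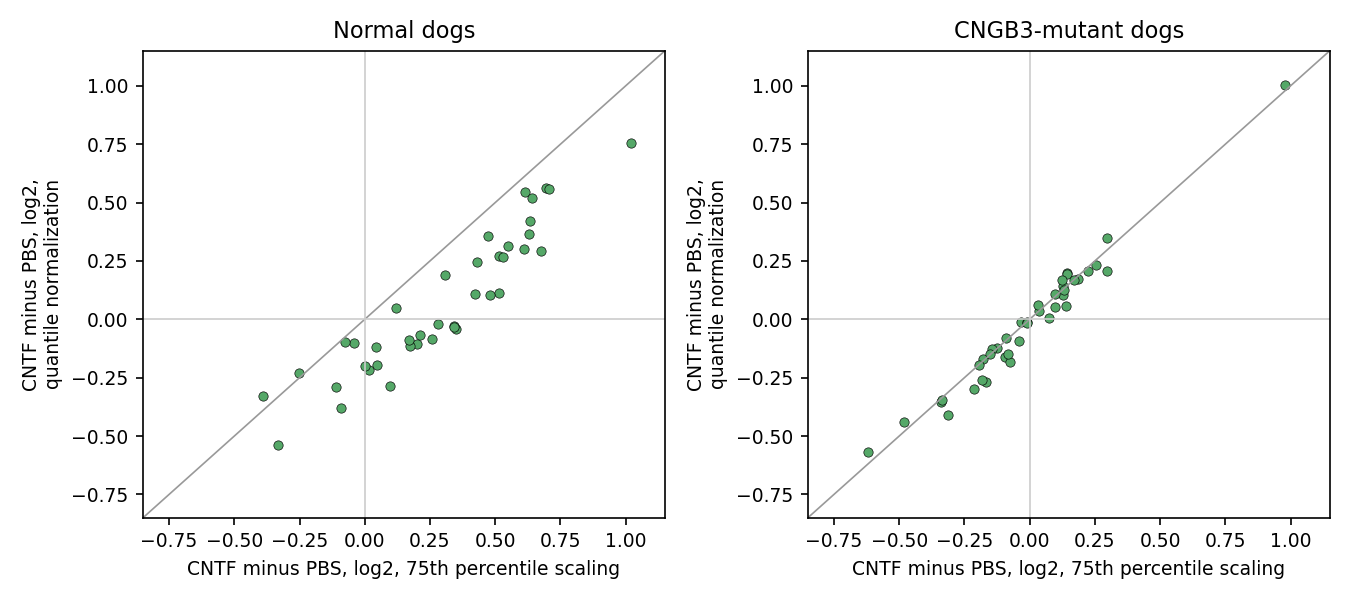
Change after CNTF of each member without NDUFA4L2 under 75th percentile scaling (horizontal axis) and under quantile normalization (vertical axis), both log2, in normal and mutant dogs, with the line of equality. In normal dogs all points but those of ATP5SL and NDUFC1 lie below the line, with medians near 0.3 and -0.03, and in mutants they lie along it.

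Subunits that the files name by gene number or description were looked at after the members' values had been seen, as 23 nuclear and 12 mitochondrially encoded genes. Neither set was tested under the other scalings, on which the direction of the members' changes in normal dogs depended. Leaving out NDUFB5, which was saturated on all 20 arrays, 16 of 22 nuclear subunits were higher and 1 was lower in normal dogs, with a median of 0.48, beside 23.6% and 27.6% of all probes. In mutants 4 were higher and none lower, beside 11.6% and 17.3% of all probes, with a median of 0.05. Cytochrome oxidase, nearly absent from the members, was represented here by 10 genes, of which 7 rose and 1 fell in normal dogs and none passed in mutants. The 1 that fell was COX6A2, the form of subunit VIa known from heart and muscle, at -0.73 (adjusted p = 0.00264). Its level was 0.94 to 1.12 in PBS normal and -0.27 to 0.65 in CNTF normal eyes, without overlap. Its change was -0.27 (adjusted p = 0.868) with the slide as a block. Within slide 3, CNTF eyes of normal dogs against PBS eyes of mutant dogs, the difference was 0.33. None of the 34 other subunits tested with that block in normal dogs, and none of the 33 in mutants, was called, including those named next. The block left 1148 of 29282 probes called in normal and 796 of 29206 in mutant dogs.

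Among the other complex III subunits, UQCR10, a small subunit, rose in both genotypes. Its level was 4.397 to 4.51 in PBS normal, 5.02 to 5.37 in the 4 CNTF normal eyes measured, 4.51 to 4.85 in PBS mutant and 5.22 to 5.55 in CNTF mutant eyes. The CNTF eyes lay above the PBS eyes in both genotypes. It rose by 0.79 ± 0.10 (adjusted p = 0.000168) and by 0.73 ± 0.09 (adjusted p = 0.000159). UQCRFS1, the Rieske iron-sulphur protein, rose by 0.82 (adjusted p = 0.000166) and by 0.51 (adjusted p = 0.00477). With the slide as a block adjusted p in normal and mutant dogs was 0.224 and 0.617 for UQCR10 and 0.25 and 0.772 for UQCRFS1. Of the 6 complex III genes 4 rose in normal dogs, beside 23.6% of all probes, with a median of 0.73. In mutants 3 rose, beside 11.6% of all probes, with a median of 0.36.

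The mitochondrially encoded subunits went the other way in normal dogs, and this was not tested under the other scalings. MT-CO2 and MT-CO3 were saturated on all 20 arrays, MT-ATP6 on 19 and MT-CO1 on 7, among them all PBS normal arrays. Of the 8 others 7 were tested, of which 5 fell and 1 rose in normal dogs, beside 27.6% and 23.6% of all probes, with a median of -0.83. None passed in mutants, beside 28.9% of all probes in either direction, with a median of -0.05. MT-CYB, the cytochrome b of complex III, had levels of 4.66, 4.95, 5.19, 5.14 and 5.25 in PBS and of 3.88, 4.48, 3.96, 4.51 and 3.98 in CNTF eyes of normal dogs. The CNTF eyes were all lower, without overlap, and the change was -0.88 (adjusted p = 0.000615). MT-ND5, a proton-pumping subunit of complex I, changed by -1.07 (adjusted p = 0.00108). Adjusted p was 0.185 for MT-CYB and 0.171 for MT-ND5 with the slide as a block. MT-ND6, encoded on the opposite strand, rose by 0.37 (adjusted p = 0.0306), higher in 4 of 5 dogs. The per-array median of the members and that of all 12 mitochondrially encoded subunits, saturated ones included, correlated at r = -0.91 (n = 20 arrays), a description over arrays that share groups, slides and brightness.

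The probes of MT-ND5 and MT-ND6 are shown because they lie on opposite strands of the mitochondrial genome (canFam2, chrM:13539-13598, plus, and chrM:13585-13644, minus) and overlap by 14 bases, in capitals, between 13585 and 13598.
MT-ND5: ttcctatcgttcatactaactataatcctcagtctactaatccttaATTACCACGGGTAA
MT-ND6: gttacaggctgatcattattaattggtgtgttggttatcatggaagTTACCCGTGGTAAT
Their changes had opposite signs in normal dogs (-1.07 and 0.37).

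No gene of the related mitochondrial lists or of the low-oxygen list was called in either genotype with the slide as a block. That block left 1148 of 29282 probes called in normal and 796 of 29206 in mutant dogs. These lists and the cell type lists were not tested under the other scalings. Of the mitochondrial lists, assembly factors of the complexes moved both ways. In normal dogs 9 of 31 rose and 5 fell, beside 23.6% and 27.6% of all probes, with a median of 0.02. In mutants 3 rose and 5 fell, beside 11.6% and 17.3% of all probes, with a median of -0.02. UQCC3, an assembly factor of complex III, rose by 0.87 (adjusted p = 0.000772) and SURF1, which helps to build complex IV, by 0.82 (adjusted p = 0.00133), while SDHAF2, which loads the flavin on SDHA, changed by -0.47 (adjusted p = 0.00247) in normal dogs. In mutants ACAD9 and TIMMDC1, complex I assembly factors, fell by 0.67 (adjusted p = 0.0015) and by 0.43 (adjusted p = 0.00391), and NDUFAF2, another, rose by 0.81 (adjusted p = 0.00239).

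Of 10 tested regulators of mitochondrial biogenesis 1 rose and 6 fell in normal dogs, beside 23.6% and 27.6% of all probes, with a median of -0.37. None rose and 3 fell in mutants, beside 11.6% and 17.3% of all probes, with a median of -0.13. PPARGC1B, a coactivator of mitochondrial genes, fell by 0.72 (adjusted p = 0.000407) in normal and by 1.10 (adjusted p = 2.47e-05) in mutant dogs. Its relative PPARGC1A fell by 0.39 (adjusted p = 0.00627) in normal dogs, as did SSBP1, which binds single-stranded mitochondrial DNA, by 0.89 (adjusted p = 0.0164). In mutants ESRRA, a nuclear receptor that works with these coactivators, fell by 0.81 (adjusted p = 0.00126), and NRF1, a transcription factor for nuclear subunit genes, by 0.40 (adjusted p = 0.0271).

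The list of other carriers of the chain, 9 of them tested, holds some of the mitochondrially encoded genes above. Among these are MT-CO1 and MT-ATP6, saturated on 7 and 19 arrays. The change of MT-CO1 is the list's median in both genotypes. In normal dogs 1 rose and 4 fell, beside 23.6% and 27.6% of all probes, with a median of -0.37. None rose and 2 fell in mutants, beside 11.6% and 17.3% of all probes, with a median of -0.15. ATPIF1, the inhibitor protein of ATP synthase, fell by 0.70 (adjusted p = 0.000802) in normal and by 0.37 (adjusted p = 0.0343) in mutant dogs. HCCS, which attaches haem to cytochrome c, fell by 0.44 (adjusted p = 0.0241) in mutants. In normal dogs MT-ND1 fell by 0.83 (adjusted p = 0.000968).

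In the tricarboxylic acid cycle, which supplies the chain, 4 of 14 genes rose and 1 fell in normal dogs, with a median of 0.18. In mutants 1 rose and 1 fell, with a median of -0.05. Of all probes 23.6% rose and 27.6% fell in normal and 11.6% and 17.3% in mutant dogs. FH, fumarase, rose by 0.57 (adjusted p = 0.000856) and SUCLG1, a succinyl-CoA ligase subunit, by 0.53 (adjusted p = 0.00862) in normal dogs. SUCLG2, its partner, rose by 0.38 (adjusted p = 0.00765) in normal and 0.34 (adjusted p = 0.0196) in mutant dogs, and OGDH, of the oxoglutarate dehydrogenase complex, fell by 0.54 (adjusted p = 0.049) in mutants. Beside the same shares, 4 of 10 tested carrier and import genes rose and none fell in normal dogs, with a median of 0.25. None rose and 1 fell in mutants, with a median of -0.09. PHB, prohibitin of the inner membrane, rose by 0.70 (adjusted p = 0.00305), CHCHD3, of the cristae junctions, by 0.53 (adjusted p = 0.0155) and TOMM22, an import receptor, by 0.44 (adjusted p = 0.012) in normal dogs. Within slide 3 the difference was below 0 for FH (-0.17) and CHCHD3 (-0.28). In mutants TOMM40, the import pore, fell by 0.50 (adjusted p = 0.0251).

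The other cell type lists moved beside these genes, and their part in the members' changes was not tested. Of 10 rod markers 1 rose and 4 fell in normal dogs (median -0.30) and 7 fell in mutants (median -0.88), with summed levels of 9.10 to 9.51 and 9.35 to 10.02 in PBS eyes and 8.95 to 9.34 and 8.78 to 9.28 in CNTF eyes of normal and mutant dogs. Of 7 Müller glia markers 5 rose and 1 fell in normal dogs (median 0.72), and 2 rose and 2 fell in mutants (median 0.19). Their summed level was 5.62 to 6.46 in PBS normal, 6.62 to 7.26 in CNTF normal, 6.24 to 6.96 in PBS mutant and 6.47 to 7.47 in CNTF mutant eyes. Of 4 endothelial markers 2 rose and 1 fell in normal dogs and 1 fell in mutants, with summed levels over 3 of them of 3.096 to 3.70 and 3.26 to 3.80 in PBS eyes and 2.61 to 3.04 and 2.49 to 2.86 in CNTF eyes. Of 5 markers of the retinal pigment epithelium 2 fell in each genotype, and their summed level lay between 6.86 and 7.53 in every eye, with 3 of 5 well above background on all arrays. Beside these counts, 23.6% of all probes rose and 27.6% fell in normal and 11.6% and 17.3% in mutant dogs. With the slide as a block 1 Müller glia and 1 endothelial marker were called in normal dogs and none in mutants. No rod or pigment epithelium marker was called with that block, which left 1148 of 29282 probes called in normal and 796 of 29206 in mutant dogs.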

How the data were processed

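Total retinal RNA of 20 eyes was labelled with Cy3 from 100 ng per sample, per the labels' protocols, and hybridised to 1-colour Agilent arrays. Per the file headers, the authors obtained the intensity of each spot from Agilent Feature Extraction 9.5.3.1 after background subtraction, with no scaling across arrays. The deposited matrix holds log2 values, for which the submitters' processing notes name Partek 6.4. Set against log2 intensity its columns had slopes of 0.96 to 1.06 and a shared median of 6.18, the centring and filter behind it are not given in the sources used here, and it served as an alternative only.

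Control spots (1417 per array) and outlier spots were left out, spots of a probe were averaged, and log2 processed signal minus the array's 75th percentile was used. Probes were kept when at least 1 group had 4 of its 5 arrays well above background (29545 of 43603, of which 21400 on all arrays), and a test needed 3 arrays per group. limma 3.58.1 (R 4.3.3) fitted all 20 arrays with dog as block and separate CNTF effects by genotype, with the difference tested in the same fit, and genotypes on 10 arrays each without covariates, all two-sided. Figures used Python 3.11.15, pandas 2.3.3 and matplotlib 3.10.9. The fit was tested on simulated data with dog effects and independent noise, without slide or brightness effects. That test says nothing about slides or brightness. The number of arrays limits the precision.

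Both eyes of a dog were paired by replicate number, since the labels give same-numbered eyes the same sex, age and genotype and say that the other eye was the control. After subtracting group means, both eyes of a dog correlated with r from -0.16 to 0.69 on all kept probes (5 of 10 dogs had their own other eye as the best match) and from 0.12 to 0.64 on the 500 probes with the largest variance (10 of 10). Slides were read from the array barcodes.

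Gene symbols came from the files, and for the other subunits and lists from gene number, accession or description matched to RefSeq genes of UU_Cfam_GSD_1.0. Positions are canFam2, per the files. Genes named are NDUFA4L2 with NDUFA4, COX4I1 and COX4I2, up to 3 called rises and falls per complex with the same direction in every dog, the member with the highest mean signal and the one with the smallest change per complex, and the 3 called genes of each list with the lowest adjusted p. A gene that meets this rule is not reported here. The redox subunits, NDUFA5, NDUFS5 in normal dogs, NDUFB3, UQCR10, UQCRFS1, COX6A2, CSPG4, PDGFRB and the mitochondrially encoded genes named outside a list were chosen after their values were seen, as were the members without a call named in the genotype comparisons and the list of other subunits. The members and lists were chosen with earlier results of these data known. Alternatives were normexp background (offset 50), quantile normalization, the deposited values, other filters on dim probes, the mean over all probes of a gene, other blocks, and single arrays or dogs left out.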

Additional observations from a re-analysis of the deposited data

Results flagged for a closer look

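Of 275 groups of 5 arrays examined over the members and the other subunits, 2 held a sample far from the others by Dixon's criterion (ratio above 0.71), and chance flags about 1 group in 20. NDUFB3, an accessory subunit of the membrane arm of complex I, had a level of -0.97 in PBS mutant array 4, while the other PBS mutant arrays lay between 2.39 and 3.27. Through this array its change in mutant dogs was 0.98 ± 0.55 (adjusted p = 0.217). ATP5F1, the b subunit of the ATP synthase stalk, had a level of 5.26 in CNTF normal array 2, while the other CNTF normal arrays lay between 5.41 and 5.47. Neither gene was called in any comparison.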

How the results depend on the processing

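NDUFA4L2 kept its direction under every alternative run and its call under all but slide and dog together. Members called in normal dogs (22) numbered 3 with normexp background, 1 with the slide as a block, 0 with slide and dog, 10 with the slide as a random block and 9 with the brightness covariate. The calls over all probes (15013 of 29336) were, in that order, 5758 of 29336, 1148 of 29282, 0 of 29223, 8823 of 29336 and 10534 of 29336. The members' median (0.31) was -0.029 under quantile normalization, -0.046 in the deposited values and 0.46 with the slide block. Within slide 3 it was -0.065, but that difference sets CNTF eyes of normal dogs against PBS eyes of mutant dogs. In mutants the count (4) was 2 with normexp background, 8 in the deposited values, 1 with the slide block and 0 with slide and dog. The calls over all probes (8473 of 29336) were, in that order, 3297 of 29336, 8334 of 29545, 796 of 29206 and 47 of 29121. The members' median in mutants (-0.01) was -0.21 with normexp background, -0.20 with the slide block and -0.24 with slide and dog. The median difference (-0.38) was -0.13 under quantile normalization, -0.16 in the deposited values, -0.58 with the slide block and -0.18 with the covariate. In PBS eyes 22 members were called with the slide as a random block, beside 9820 of 29433 probes. The median there (0.28) was 0.060 under quantile normalization, 0.052 in the deposited values and 0.48 with the slide block, which equals the difference within slide 2. In CNTF eyes the median (-0.03) was -0.23 with normexp background. ATP5B in normal dogs turned to -0.042 under quantile normalization and -0.049 in the deposited values, and NDUFS5 in mutants to -0.0031 with slide and dog. The cause was not tested. Without the replicate block 17 members were called in normal dogs (15 higher, 2 lower), 4 in mutants and 0 for the difference, with a median of 0.28 in normal dogs. Of 29336 probes 11518 were called there in normal dogs, 6664 in mutants and 0 for the difference. Leaving out 1 dog or array at a time gave 13 (without dog 3 or 5) to 24 calls and medians of 0.25 to 0.41 in normal dogs, 3 to 5 calls and medians of -0.08 to 0.03 in mutants, 0 calls and -0.47 to -0.30 for the difference, 0 to 15 calls and 0.21 to 0.38 in PBS eyes, and 0 calls and -0.14 to 0.01 in CNTF eyes. Saturation limits NDUFB5, MT-CO2, MT-CO3 and MT-ATP6.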

Other observations

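Probes of the same gene did not always move together. Of 16 members with several probes, 14 had the same sign on all probes in normal dogs and 15 in mutants. Some but not all probes were called for 5 of the 16 in normal dogs, UQCRC1 among them, and for 2 in mutants. For NDUFB11 the chosen probe had a change of 0.02 (adjusted p = 0.916) in normal dogs and the second probe one of 0.63 (adjusted p = 0.00299). The chosen probe was saturated on 1 array. In mutants the changes were 0.03 and 0.03. For NDUFA4L2 the array had a single probe.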
